A study of Rattus norvegicus with 9 samples.

Results

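The comparison described here set the small RNAs of the striatum of MMT-treated rats against those of rats given only the vehicle. MMT is methylcyclopentadienyl manganese tricarbonyl, an organic manganese compound used as a fuel additive. The libraries were chosen by their titles, 3 of the MMT group and 3 of the control group, which made 6 of the 9 libraries of the series, and no other group entered. The rats were 8 weeks old and weighed 220 ± 20 g, and came from a series of 18 rats, 9 male and 9 female, with 3 of each sex in a group. The MMT group received MMT at 4 mg/kg, a dose of about 1 mg/kg manganese, given in corn oil. The control group received corn oil alone at 1 ml/kg. Both were dosed into the stomach once a day, 6 days a week, for 8 weeks. The strain is not given in the sources used here, nor is the sex behind a library, or whether a library was 1 rat or a pool. The p-values below therefore speak only of how far these libraries spread, and that spread may be technical.

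The striatum receives cortical input to the basal ganglia and is, with the pallidum, a known site of manganese injury. A mature miRNA guides Argonaute to messenger RNAs mainly through its seed, bases 2 to 8 from its 5′ end, so miRNAs with the same seed are grouped as a family and the sequences below are printed with the seed in capitals. Small RNA libraries also hold fragments of tRNAs, the adaptors that read codons through their anticodon, and some of these fragments accumulate when cells are stressed. Many piRNA entries of annotation sets used for somatic tissue are stretches of tRNA, so a piRNA entry here is only the name of a sequence.

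Every entry of the deposited count lists was used: 764 miRNAs, 410 tRNA genes and 585 piRNAs, 1759 in all. After a filter on low counts 1048 entries were tested, namely 558 miRNAs, all 410 tRNA genes and 80 piRNAs. The 711 untested entries held 0.115% of the counts. Levels are given in CPM, counts scaled by library size and TMM, and differences as the fitted log2 fold change of MMT against control with its standard error (SE).

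The 3 miRNAs of lowest p in each direction are printed first, as the deposited files give them, in DNA letters, 5′ to 3′, to show that their seeds all differ.

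miR-301b-3p: cAGTGCAAtggtattgtcaaagc

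miR-187-3p: tCGTGTCTtgtgttgcagccgg

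miR-320-5p: gCCTTCTCttcccggttcttcc

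miR-542-3p: tGTGACAGattgataactgaaa

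miR-219a-5p: tGATTGTCcaaacgcaattct

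miR-874-3p: cTGCCCTGgcccgagggaccga

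The first 3 were lower in MMT libraries and the last 3 higher. The RefSeq table of the GRCr8 rat assembly holds the same mature sequence for each of them but miR-320-5p, which it does not list.

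No small RNA passed the test. In edgeR, the quasi-likelihood test with Benjamini-Hochberg adjustment called 0 of 1048 entries at an adjusted p under 0.05 (0.0% called), and the lowest adjusted p was 0.999. DESeq2 also called 0. At an unadjusted p under 0.05 edgeR had 24 entries lower in MMT (2.29% of those tested) and 1 higher (0.0954%). Together these were fewer than such a threshold passes on average when no entry differs. DESeq2 had 18 lower and 3 higher. Leaving out libraries moved this split: without control 1 edgeR had 15 lower and 21 higher, without control 3 42 lower and 3 higher, and without control 2, MMT 1 or MMT 2 between 3 and 5 lower. It had 12 lower and 0 higher without MMT 3.

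The 24 low entries were 15 of 410 tRNA genes, 5 of 80 piRNAs and 4 of 558 miRNAs. All 5 piRNA entries share at least 16 bases with a tRNA, as do 58 of the 80 tested piRNA entries. The 4 miRNAs were miR-301b-3p, miR-187-3p, miR-320-5p and miR-875, and the 1 entry on the high side was miR-542-3p. In 47 entries (4.48%) all 3 MMT libraries lay below all 3 control libraries, of which 30 were tRNA genes, 11 miRNAs and 6 piRNAs. In 15 (1.43%) all 3 lay above, of which 9 were miRNAs, 4 tRNA genes and 2 piRNAs. Many tRNA genes share sequence and may share reads, so these 30 are not independent of each other. The same holds for the 15 tRNA genes and 5 piRNA entries at a low p.

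**Figure D1:**
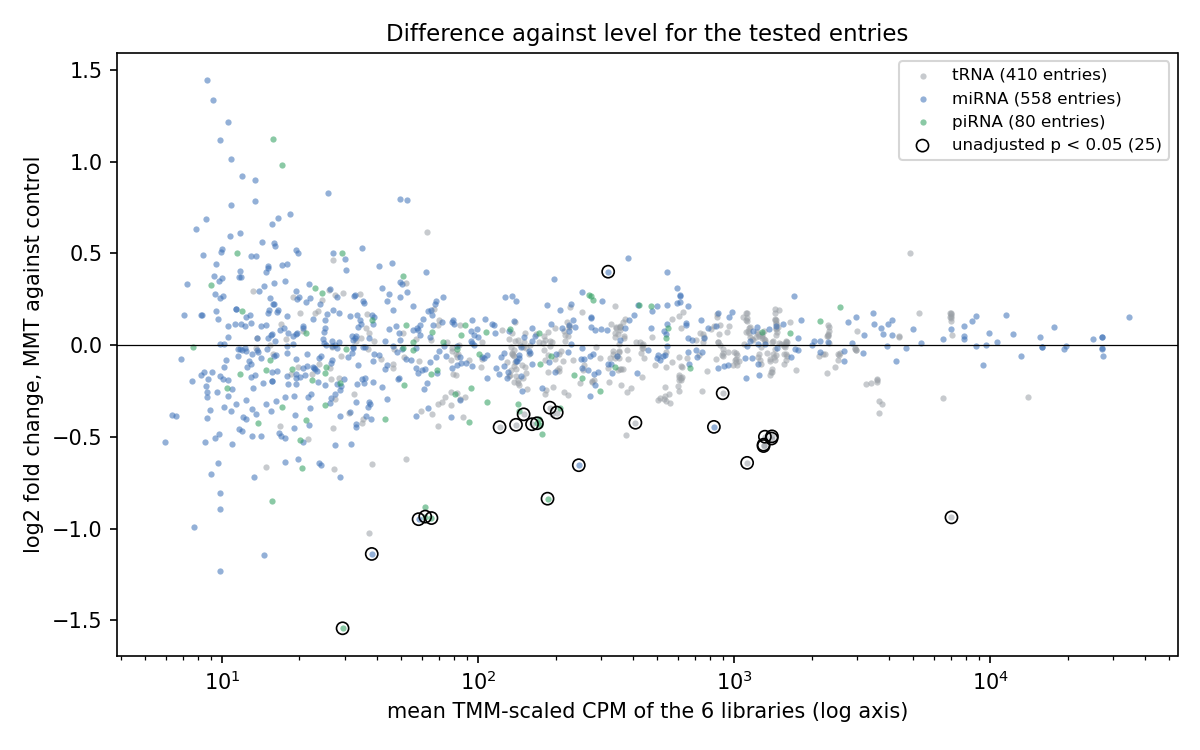
Fitted log2 fold change of MMT against control for each of the 1048 tested entries (vertical axis) against its mean TMM-scaled CPM over the 6 libraries (horizontal, log axis), coloured by class, with the 25 entries at an unadjusted p under 0.05 circled. All but 1 of the circled entries lie below 0, and the scatter narrows from low to high levels.

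Most differences were small beside their error. The median log2 fold change was 0.01 over the 558 miRNAs, -0.04 over the 410 tRNA genes and -0.11 over the 80 piRNAs, against -0.02 over all entries, of which 561 (53.5%) were lower in MMT. Only 77 entries (7.35%) differed by more than 0.5 on the log2 scale and 11 (1.05%) by more than 1. The 95% interval of a fold change reached a median of 1.46-fold to either side. It was 3.41-fold for entries up to 20 CPM, 1.87-fold from 20 to 100, 1.29-fold from 100 to 1000 and 1.30-fold above 1000 CPM. These are medians, and the interval of a single entry can be narrower or wider.

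The 6 libraries differed more by depth than by group. Totals were 2012769, 1006283 and 583045 counts in control 1 to 3 and 1227930, 730044 and 1543987 in MMT 1 to 3, and an exact two-sided permutation test of the group means gave p = 1 (where 0.1 is the smallest that 3 against 3 allows). A first principal component with 74.9% of the variance ordered the libraries exactly as their totals did, from -23.6 for control 1 to 15.6 for control 3. Entries listed at 0 were most numerous in the deepest library, 454 in control 1 against 348 in MMT 2, and 58.8% of the tested entries at up to 20 CPM had fewer raw counts in control 1 than in control 3, against 2.17% of those above 100 CPM. With a term for the log2 total in the fit, an unadjusted p under 0.05 was reached by 47 entries on the low side and 29 on the high side. None of them passed adjustment in edgeR's fit of all entries (lowest adjusted p = 0.0646). As for class shares, miRNAs took 59.7% ± 3.49 of control and 60.9% ± 3.74 of MMT counts, tRNAs 38.6% ± 3.46 and 37.4% ± 3.56, and piRNAs 1.68% ± 0.119 and 1.70% ± 0.204 (SD, n = 3; exact two-sided permutation p = 0.7, 0.7 and 0.9, each 0.9 adjusted over the 3 classes).

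**Figure D2:**
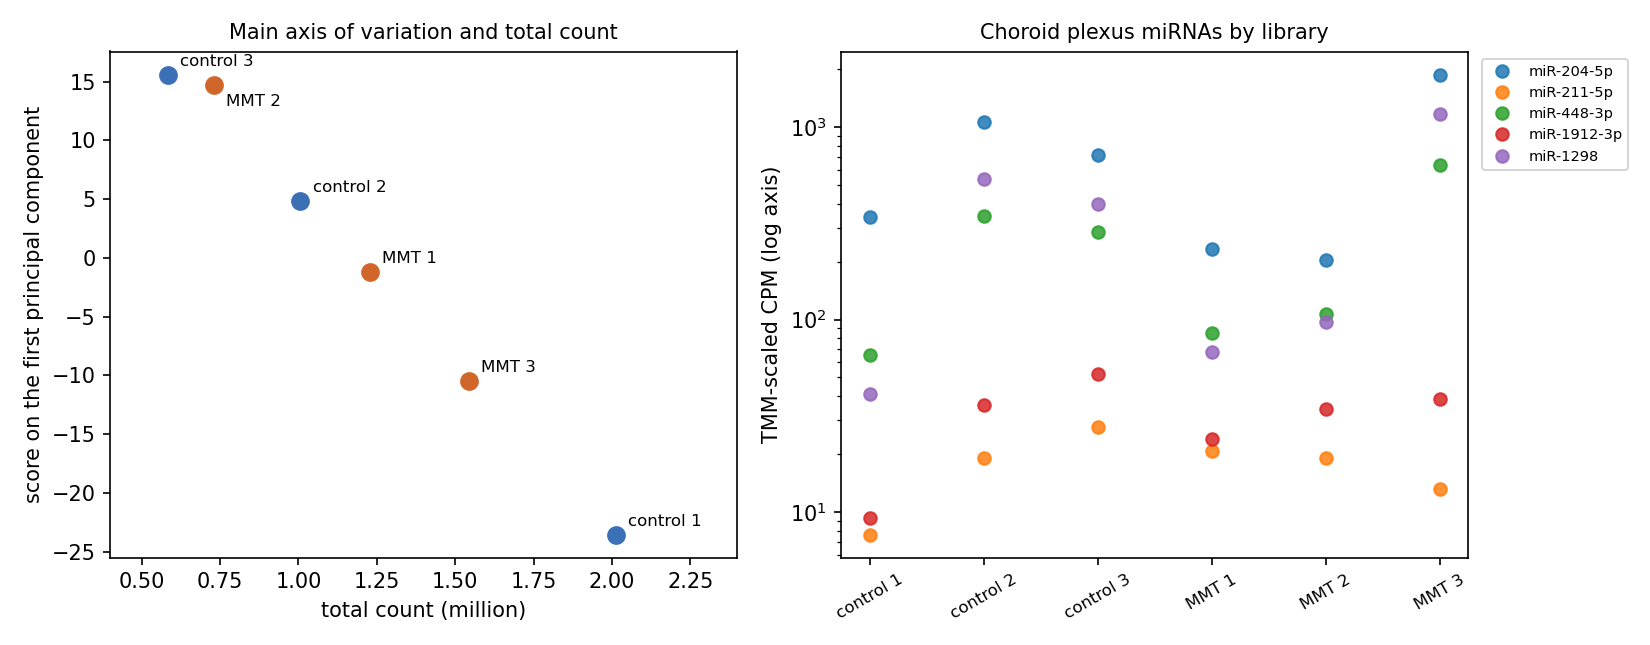
Left, score of each library on the first principal component against its total count, with control libraries in blue and MMT libraries in orange. Right, TMM-scaled CPM (log axis) of the 5 tested choroid plexus miRNAs in each library. The scores follow the totals across both groups, and miR-204-5p, miR-448-3p and miR-1298 stand highest in MMT 3.

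Markers of neurons, glia and vessels were all present. The neuron markers miR-124-3p, miR-128-3p, miR-137-3p, miR-138-5p and miR-218a-5p together reached 32638 to 41638 CPM in control and 33508 to 42121 CPM in MMT libraries. Oligodendrocyte markers (miR-219a-5p, miR-219a-2-3p, miR-338-3p) reached 3445 to 5445 and 4690 to 5514 CPM. None of the 10 marker lists was at 0 in all libraries, and the epithelial list, the striated muscle list, the red cell list, the hindbrain list and the liver marker miR-122-5p stayed at or below 172 CPM. The choroid plexus markers miR-204-5p, miR-211-5p and miR-448-3p summed to 415, 1421 and 1029 CPM in control 1 to 3 and to 337.7, 330.4 and 2519 CPM in MMT 1 to 3, so each group held both low and high libraries. The choroid plexus lies in the ventricle beside the striatum, and its part in the differences below was not tested. In bulk tissue, fewer cells of a type and less RNA per cell cannot be told apart.

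Of all entries, miR-301b-3p had the lowest p. It stood at 48.1, 50.2 and 60.0 CPM in control 1 to 3 and at 22.4, 24.2 and 24.9 CPM in MMT 1 to 3. Its groups did not overlap (52.8 ± 6.36 against 23.8 ± 1.29 CPM, SD, n = 3). The log2 fold change was -1.14 ± 0.28 (SE), and edgeR gave an unadjusted p of 0.00415 that became 0.999 after adjustment over all entries. These levels rest on few counts, 88, 50 and 39 in control and 27, 19 and 36 in MMT libraries. Sampling noise alone would spread so few counts more than the MMT libraries differed, so their SD understates the uncertainty. Over 17 alternative fits and left-out libraries the log2 fold change of miR-301b-3p ran from -1.22 to -1.04. These runs reuse the libraries in which it was chosen by its p, so the range is no separate support.

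Its seed relatives are shown beside it. The miR-130 and miR-301 family targets messenger RNAs through the seed that is capitalised below, and its members are printed here because miR-301b-3p and the far more abundant miR-301a-3p differ in a single base.

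miR-301a-3p: cAGTGCAAtagtattgtcaaagc

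miR-301b-3p: cAGTGCAAtggtattgtcaaagc

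miR-130a-3p: cAGTGCAAtgttaaaagggcat

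miR-130b-3p: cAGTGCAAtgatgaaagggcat

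The change from miR-301a-3p to miR-301b-3p is A10G, counted from 1 at the 5′ end, outside the seed. miR-301a-3p stood at 1212, 1417 and 922 CPM in control and 1179, 1035 and 1593 CPM in MMT libraries, with a log2 fold change of 0.10 ± 0.21 (SE). miR-130a-3p was at 298 ± 53.1 CPM in the control and 266 ± 85.7 CPM in the MMT group (log2 fold change -0.16 ± 0.24, SE). The groups overlapped for both. miR-130b-3p (4.15 to 11.04 CPM over the 6 libraries) and the other arm miR-301b-5p (0.546 to 20.4 CPM) were below the filter. Summed over the 4 members, the seed was at 1537 ± 277 CPM in the control and 1573 ± 402 CPM in the MMT group (0.03 ± 0.21, SE). How reads with a mismatch were assigned between miR-301a-3p and miR-301b-3p is not given in the sources used here.

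The other miRNAs on the low side at an unadjusted p under 0.05 in edgeR were more abundant and differed less. miR-187-3p stood at 960, 874 and 1042 CPM in control and at 664, 675 and 771 CPM in MMT libraries, with no overlap and a log2 fold change of -0.45 ± 0.12 (SE). miR-320-5p comes from a hairpin whose processing bypasses Drosha. It stood at 298, 352 and 255 CPM in control and at 217, 148 and 209 CPM in MMT libraries, again apart, with a log2 fold change of -0.65 ± 0.19 (SE). Its other arm miR-320-3p, the form usually described, was below the filter at 2.49 to 10.2 CPM. The other arm of miR-187 was scarcer still, at 0 to 12.8 CPM. miR-875 stood at 40.4, 79.3 and 112 CPM in control and 42.3, 34.4 and 41.5 CPM in MMT libraries, so control 1 lay among the MMT libraries. The remaining miRNAs with all MMT libraries below all control libraries were miR-185-3p, miR-221-5p, miR-31b, miR-3579, miR-376c-5p, miR-378a-5p, miR-411-3p and miR-1-5p, with log2 fold changes from -0.25 for miR-185-3p to -0.70 for miR-1-5p. They were picked out by that separation after their values were seen. Their control means ran from 11.2 CPM for miR-1-5p to 160 CPM for miR-185-3p. Only miR-185-3p and miR-3579 (88.8 CPM) stood above miR-301b-3p in control.

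On the high side miR-542-3p was alone at an unadjusted p under 0.05. It stood at 307, 289 and 234 CPM in control and at 358, 357 and 383 CPM in MMT libraries, which lay close together and above every control library. The log2 fold change was 0.40 ± 0.14 (SE), with an unadjusted p of 0.0197 in edgeR. Its other arm, miR-542-5p, overlapped between the groups at 13.1 to 24.0 and 17.9 to 24.9 CPM (0.26 ± 0.43, SE). miR-450a-5p and miR-450b-5p, which are encoded in the same X-linked cluster as miR-542, share a seed. Their sum was 28.5, 41.6 and 44.1 CPM in control and 49.98, 57.2 and 45.9 CPM in MMT libraries, with all MMT libraries higher and a log2 fold change of 0.43, and was looked at after the values were seen.

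The next entries on the high side had unadjusted p-values between 0.0554 and 0.132 in edgeR. miR-219a-5p, which promotes the maturation of oligodendrocytes, stood at 531, 592 and 471 CPM in control and at 741, 591 and 649 CPM in MMT libraries. MMT 2 and control 2 met at the border, and the log2 fold change was 0.31 ± 0.14 (SE). miR-18a-5p, from the miR-17/92 cluster, stood at 11.5, 22.1 and 23.1 CPM against 41.5, 24.2 and 33.2 CPM, and its log2 fold change was 0.83 ± 0.43 (SE). miR-874-3p had the largest difference of the miRNAs named on the high side, 1.44 ± 0.69 (SE), at only 2.19, 6.02 and 6.15 CPM in control and 13.3, 14.0 and 10.4 CPM in MMT libraries, or 4 to 6 counts against 11 to 16. let-7f-1-3p, the passenger arm of let-7f, was at 8.18 ± 1.87 CPM in the control and 15.6 ± 3.62 CPM in the MMT group (0.92 ± 0.53, SE), while its guide arm let-7f-5p was at 28095 ± 5404 and 26911 ± 2062 CPM (-0.06 ± 0.19, SE). miR-20a-5p (0.36), miR-142-3p (0.40) and miR-23a-3p (0.24) completed the miRNAs of this group. Of these, miR-23a-3p and the scarce miR-18a-5p, miR-874-3p and let-7f-1-3p had all MMT libraries above all control libraries, as had 1.43% of all entries. They were named for their low p, so this separation follows largely from the choice. Of the other arms, miR-18a-3p (-0.38), miR-20a-3p (-0.28) and miR-23a-5p (-0.12) were lower and miR-142-5p (0.10) was higher, while miR-874-5p was below the filter. Seed relatives ran from 0.00 to 0.29 for miR-20a-5p and from -0.24 to -0.06 for let-7f-1-3p, with miR-23b-3p at 0.11 for miR-23a-3p. The groups overlapped for all of these arms and relatives.

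**Figure D3:**
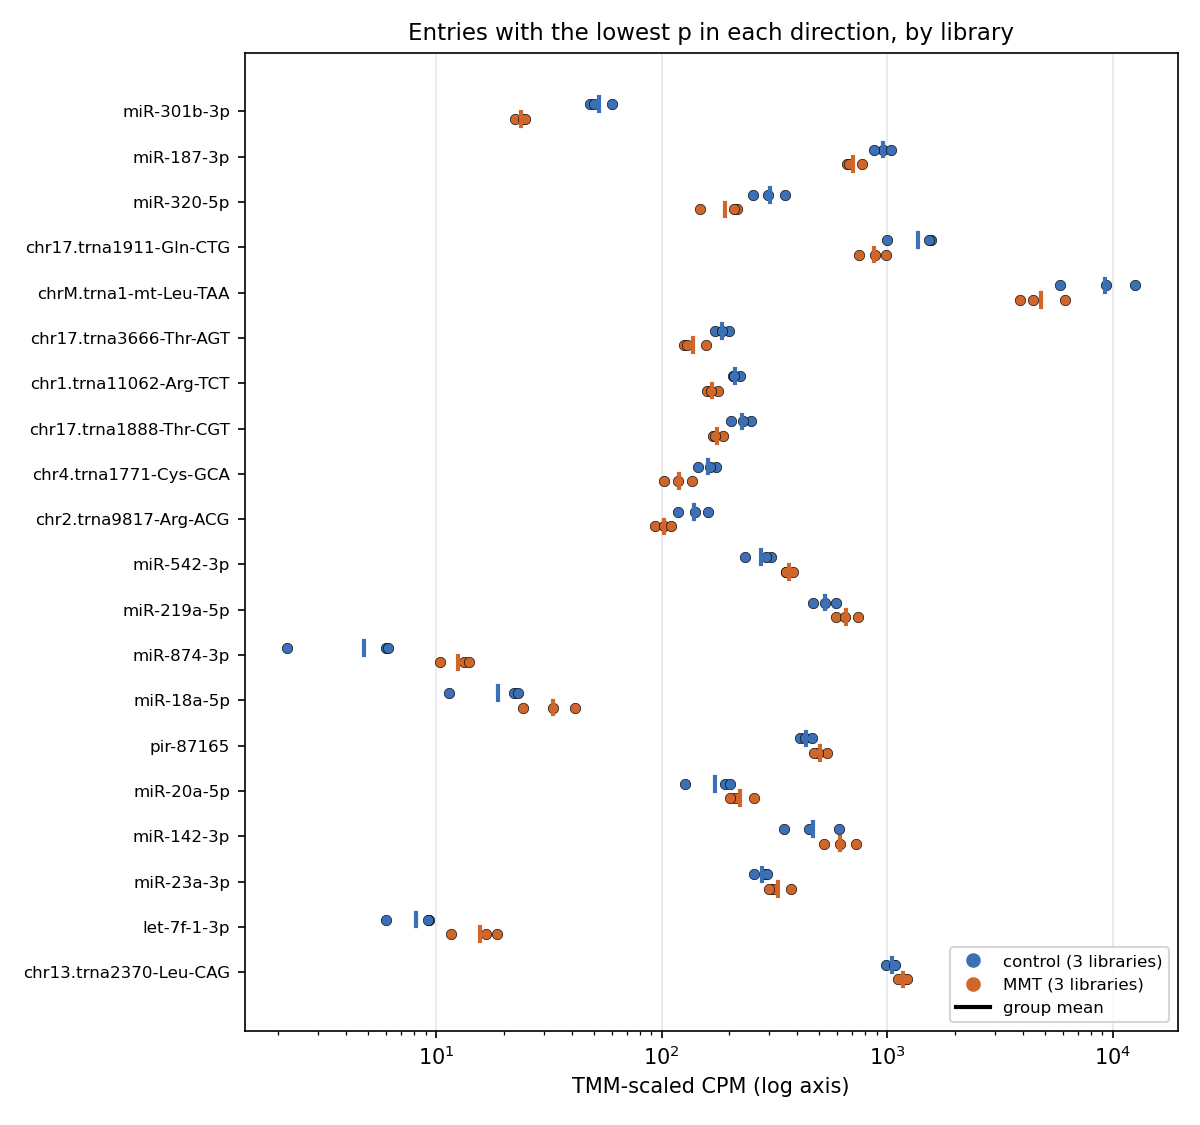
TMM-scaled CPM (log axis) in each library for the 10 entries with the lowest p on the low side (upper rows) and the 10 on the high side (lower rows), 1 per sequence or isotype, with control in blue, MMT in orange and a bar at the group mean. miR-301b-3p shows the clearest gap, from 22.4 to 24.9 CPM in MMT against 48.1 to 60.0 CPM in control, and for mt-Leu-TAA the highest MMT library lies above the lowest control library.

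In the table with miRNAs summed by seed, edgeR called 0 of 960 rows (0.0%), while an unadjusted p under 0.05 was reached by 23 rows on the low side (2.4%) and 2 on the high side (0.208%). All MMT libraries lay below all control libraries in 40 rows (4.17%) and above in 13 (1.35%). These rows include single tRNA genes and piRNA entries, which were not summed. Of the 470 seeds among them, 221 were lower and 249 higher, and 84 were shared by at least 2 miRNAs. An unadjusted p under 0.05 in edgeR was reached by 3 seeds on the low side and 2 on the high side. All MMT libraries lay below all control libraries in 9 seeds and above in 7. The 5 seeds of lowest p in each direction were all carried by 1 miRNA: miR-320-5p, miR-187-3p, miR-875, miR-3579 and miR-185-3p on the low side and miR-542-3p, miR-219a-5p, miR-874-3p, miR-18a-5p and miR-142-3p on the high side. The low sums had log2 fold changes from -0.93 to -0.24, the high ones from 0.32 to 1.46.

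The most abundant miRNAs had differences smaller than their spread. miR-29b-3p stood at 33015 ± 7857 CPM in the control and 36673 ± 10567 CPM in the MMT group (log2 fold change 0.15 ± 0.27, SE). miR-9a-5p, of the neuronal miR-9 family, was at 26894 ± 4508 and 27690 ± 3886 CPM (0.04 ± 0.20, SE). Its antisense partner miR-9b-3p had nearly the same levels, 26959 and 27762 CPM, and miR-3556a, the partner of miR-29a-3p, was at 27358 and 27035 CPM. Where strand was not used in counting, such partners hold the same reads. The groups overlapped for all of them and for let-7f-5p.

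The miRNAs were also read by lists of cell type, pathway and family, which held 0 members past the test in edgeR. Of their 157 tested members 2 had an unadjusted p under 0.05, miR-301b-3p and miR-320-5p, both on the low side, where 2.29% of all entries had one. Most list medians turned with the choice of libraries or scaling. They were recomputed with each of the 6 libraries left out and under 3 other scalings (RLE, total count, and miRNA entries fitted alone), and 6 of the 24 kept the sign of their median throughout. These were the oligodendrocyte, muscle, miR-17/92, miR-181, miR-23/24/27 and Drosha-independent lists. The last had 1 tested member, miR-320-5p, already named for its low p. The ranges below are those with a library left out, and a list whose range spans 0 has no settled direction. A kept sign does not settle a direction either, since the runs reuse the same libraries. In the neuron list 7 of 12 were higher in MMT and the median log2 fold change was 0.03, beside -0.02 for all entries. miR-128-3p was at 19476 ± 2342 CPM in the control and 19169 ± 2226 CPM in the MMT group, miR-124-3p at 2151 ± 130 and 2182 ± 197 CPM, and miR-138-5p at 2811 ± 453 and 3128 ± 394 CPM (0.15 ± 0.16, SE). The neuron median ran from -0.08 without control 3, with 1 of 12 higher, to 0.15 without control 1, with 11 of 12 higher. It was also below 0 without MMT 3 (4 of 12 higher), and 2 of 12 were higher when miRNA entries were fitted alone. The activity-regulated list, whose members are transcribed after synaptic stimulation, had 2 of 6 higher and a median of -0.08, which turned to 0.05 with 4 of 6 higher without MMT 3. miR-132-3p was at 675 ± 104 and 690 ± 39.6 CPM, miR-134-5p at 340 ± 20.2 and 316 ± 19.6 CPM, and miR-212-3p at 67.3 ± 14.1 and 58.4 ± 10.2 CPM.

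Of the oligodendrocyte miRNAs, which drive or mark myelinating cells, 5 of 6 were higher and the median was 0.25. miR-338-3p stood at 4050, 3162 and 2557 CPM in control and at 3968, 3582 and 3466 CPM in MMT libraries, and miR-219a-2-3p at 864, 384 and 417 CPM against 805, 643 and 575 CPM. In both, control 1 was the highest of all 6 libraries and the other control libraries the lowest. The median ran from 0.09 without control 3 to 0.44 without control 1, each time with 5 of 6 higher. miR-338-5p had a log2 fold change of 0.29 ± 0.25 (SE), and only the scarce miR-219a-1-3p was lower. The list holds both arms of miR-338 and of miR-219a, so its members are not independent of each other.

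Of 9 tested miRNAs of inflammation and immune cells, 5 were higher and the median was 0.08 (-0.02 without MMT 3 to 0.20 without control 1). miR-21-5p stood at 1995, 1503 and 1138 CPM in control and at 2045, 1677 and 1862 CPM in MMT libraries (0.27 ± 0.20, SE). The leukocyte and microglia miRNA miR-142-3p stood at 450, 613 and 348 CPM and at 523, 616 and 725 CPM (0.40 ± 0.22, SE). miR-146a-5p, which dampens innate immune signalling, was at 687 ± 150 and 640 ± 78.3 CPM, and miR-155-5p was below the filter. The red cell miRNA miR-451-5p was at 45.3 ± 15.5 and 41.1 ± 7.62 CPM, miR-144-5p at 26.9 ± 6.20 and 26.7 ± 8.11 CPM, and 1 of 3 tested erythrocyte miRNAs was higher, against 3 of 3 without control 3 and 2 of 3 under RLE scaling or without any 1 of the MMT libraries.

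Endothelial miR-126a-3p was at 6813 ± 1210 and 7235 ± 341 CPM and smooth muscle miR-143-3p at 7768 ± 1189 and 7937 ± 551 CPM, and 6 of 8 list members were higher with a median of 0.03. This ran from -0.07 without control 3, with 1 of 8 higher, to 0.19 without control 1, with 8 of 8 higher, and 2 of 8 were higher when miRNA entries were fitted alone. In the choroid plexus list 4 of 5 were higher with a median of 0.13, which turned to -0.24 without control 1 and -0.66 without MMT 3 and reached 0.63 without MMT 2. miR-204-5p alone ran from 204.1 CPM in MMT 2 to 1869 CPM in MMT 3, and miR-1298 from 41.0 CPM in control 1 to 1163 CPM in MMT 3. miR-448-3p had a log2 fold change of 0.29 ± 0.92 (SE).

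Of epithelial miRNAs only miR-429 (41.5 ± 5.33 and 36.0 ± 5.49 CPM) and miR-141-3p (14.7 ± 11.6 and 19.6 ± 18.5 CPM) passed the filter. Muscle miR-206-3p was at 82.8 ± 26.8 and 82.7 ± 51.8 CPM and miR-499-5p at 75.6 ± 6.38 and 82.0 ± 13.6 CPM. miR-1-3p had all MMT libraries above all control libraries while its other arm miR-1-5p had all below, both at 5 to 13 CPM. Summed with entries that share its sequence on either strand, miR-1-3p gave a log2 fold change of -0.16, against 0.51 alone. The hindbrain and spinal cord Hox miRNAs miR-196a-5p (26.8 ± 21.9 and 26.8 ± 19.6 CPM) and miR-10a-5p (22.2 ± 16.8 and 15.9 ± 6.16 CPM) were lowest in control 1, at 1.64 and 6.56 CPM. miR-196b-5p had a log2 fold change of 0.20 ± 0.70 (SE).

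The let-7 family had 3 of 9 members higher (median -0.01, from -0.11 for let-7e-5p to 0.10 for let-7i-5p), and all 9 were higher without control 1 or MMT 2 and all 9 lower without control 3, with medians from -0.14 to 0.18. Under RLE scaling 5 of 9 were higher, and 1 of 9 when miRNA entries were fitted alone. let-7c-5p was at 19761 ± 3086 and 19689 ± 1980 CPM. miR-29 had 1 of 3 higher (-0.01), against 3 of 3 without control 1 or MMT 2 or under RLE scaling, 2 of 3 without control 2 and 0 of 3 without control 3 or MMT 3 (medians from -0.11 to 0.20), with miR-29a-3p at 27343 ± 6524 and 26932 ± 4323 CPM. All 5 miR-30 members were on the high side, by 0.00 to 0.13, with miR-30c-5p at 9584 ± 2088 and 9603 ± 2006 CPM and miR-30e-5p at 8072 ± 1365 and 8849 ± 1342 CPM. Fitted on miRNA entries alone, 1 of the 5 was higher, without MMT 3 2 of 5 and without control 3 0 of 5, and the median ran from -0.16 to 0.29 with a library left out. The miR-99/100 and miR-125 families had 3 of 5 higher (0.08), against 5 of 5 without control 1 (0.34) or MMT 2 (0.23) and 0 of 5 without control 3 (-0.04), with miR-125b-5p at 7583 ± 2050 and 8157 ± 1474 CPM, miR-125a-5p at 1777 ± 625 and 1750 ± 302 CPM and miR-99b-5p at -0.15 ± 0.23 (SE).

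All 4 miR-181 members were higher (median 0.19, from 0.14 without control 3, with 3 of 4 higher, to 0.27 without control 1). miR-181a-5p stood at 724, 485.9 and 460 CPM in control and at 704, 728 and 587 CPM in MMT libraries (0.27 ± 0.19, SE), with control 1 among the MMT libraries. miR-181b-5p was at 455 ± 101 and 487 ± 32.1 CPM and miR-181c-5p at 40.6 ± 8.04 and 48.9 ± 3.08 CPM. All 5 members of the miR-23, miR-24 and miR-27 clusters were higher (0.12, from 0.00 without control 3 to 0.34 without control 1; 4 of 5 without MMT 3 or control 3), from miR-23a-3p at 0.24 to miR-27a-3p at 0.09, with miR-27b-3p at 8288 ± 1857 and 9266 ± 768 CPM and miR-24-3p at 1491 ± 291 and 1617 ± 204.3 CPM. In the miR-17/92 cluster and its paralogs, which carry proliferative miRNAs, 8 of 11 were higher (0.12, from 0.07 without MMT 3 to 0.29 without control 2), while the most abundant, miR-93-5p, was at 1308 ± 304 and 1312 ± 41.96 CPM and miR-25-3p at 522 ± 132 and 568 ± 10.0 CPM.

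The 3 miRNAs known to repress alpha-synuclein, the protein of Lewy bodies, had log2 fold changes from 0.03 to 0.14. miR-7a-5p stood at 28620, 23607 and 22631 CPM in control and at 22601, 21460 and 32519 CPM in MMT libraries, so MMT libraries were both the lowest and the highest. miR-153-3p (0.14 ± 0.22, SE) was likewise highest in MMT 3, and without that library, or without control 3, 0 of the 3 were higher. Fitted on miRNA entries alone, 1 of 3 was. The p53-linked miR-34a-5p was at 1751 ± 752 and 1799 ± 437 CPM, and the miR-34 and miR-449 list had 3 of 5 higher (0.04, turning to -0.26 without control 1 and -0.04 without MMT 3 and reaching 0.52 without control 2; 1 of 5 higher when miRNA entries were fitted alone), with miR-34c-5p at 222.6 ± 120 and 231 ± 140 CPM, miR-449a-5p at 22.5 ± 6.25 and 31.6 ± 5.07 CPM and miR-449c-5p at 15.6 ± 10.6 and 13.3 ± 6.19 CPM. The hypoxia miRNA miR-210-3p was at 32.5 ± 14.4 and 38.8 ± 4.06 CPM. In the miR-183 cluster of sensory cells 2 of 3 were higher, but 1 of 3 without control 1 or MMT 2 (medians -0.26 and -0.45), with miR-182 at 13.8 ± 7.61 and 22.8 ± 14.4 CPM, miR-183-5p at 14.7 ± 9.85 and 16.8 ± 12.0 CPM and miR-96-5p at 11.9 ± 7.81 and 9.89 ± 4.70 CPM.

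The imprinted Dlk1-Dio3 cluster, a large miRNA cluster active in neurons, lay on both sides. Of 43 tested members 16 were higher and 27 lower, with a median of -0.04. miR-127-3p was at 9708 ± 3156 CPM in the control and 9016 ± 1277 CPM in the MMT group, and miR-379-5p at 4710 ± 471 and 4663 ± 465 CPM. miR-411-3p had all MMT libraries lower (29.6 ± 10.9 against 18.9 ± 4.65 CPM), and miR-494-3p and miR-758-3p all higher, at group means of 8.01 to 15.1 CPM. These separations were noticed after the values were seen, beside 4.48% of all entries wholly below and 1.43% wholly above. miR-337-5p had a log2 fold change of 0.27 ± 0.16 (SE). Left-out libraries moved the split: 29 of 43 were higher without control 1, 31 without MMT 2, 23 without MMT 1, 22 without control 2, 13 without control 3 and 12 without MMT 3.

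**Figure D4:**
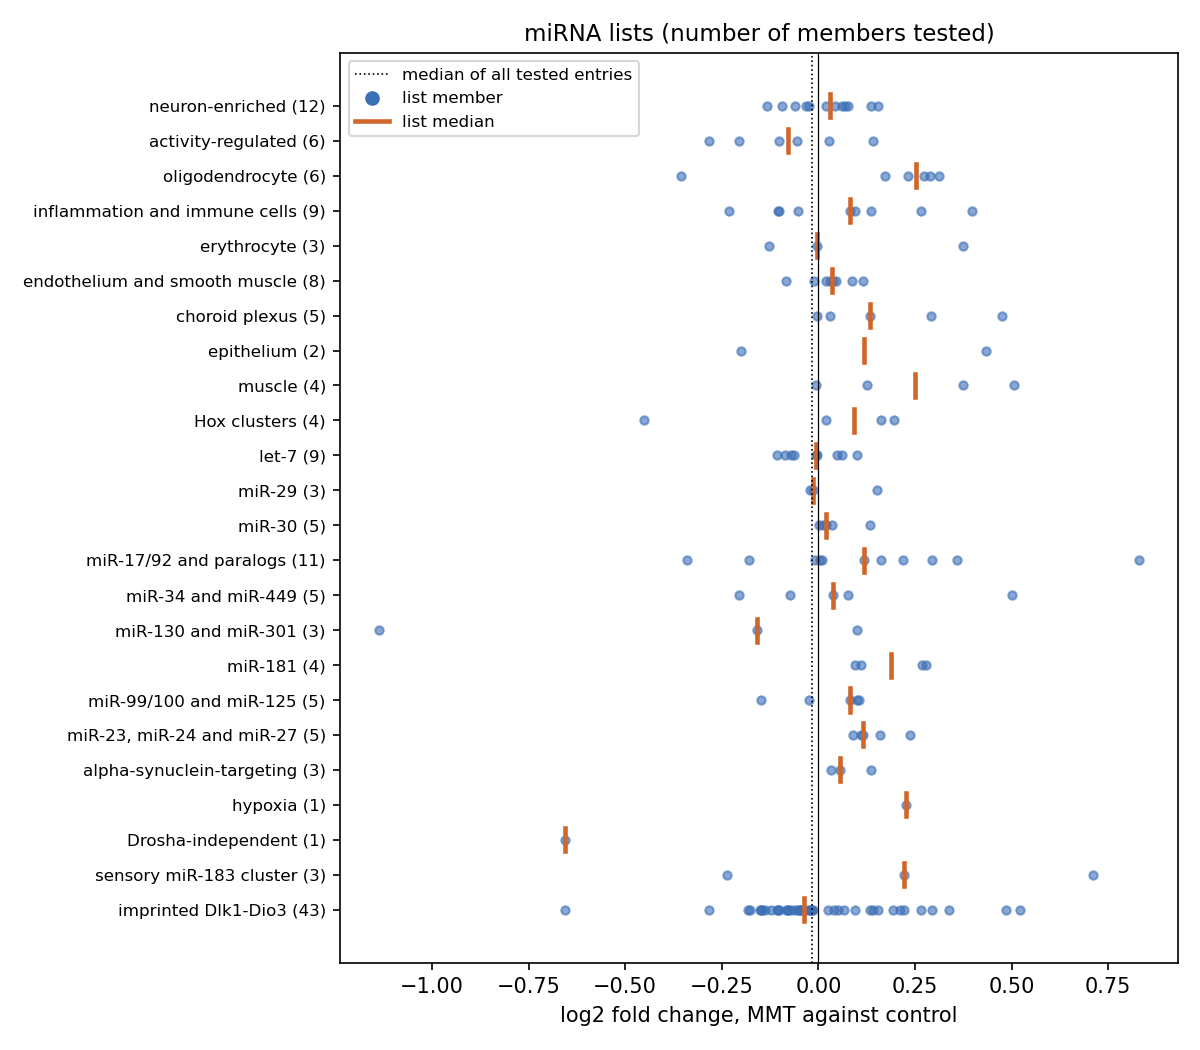
Fitted log2 fold change of MMT against control for each tested member of the 24 miRNA lists (blue points), the list's median (orange bar) and the median of all 1048 tested entries (dotted line). All list medians lie between -0.16 and 0.25 but the one at -0.65, of the Drosha-independent list, which has 1 tested member, miR-320-5p, and the point at -1.14 is miR-301b-3p.

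All 15 tested nuclear tRNA genes for glutamine were lower in MMT, with a median of -0.32 (from -0.51 without control 3 to -0.20 without MMT 2 and -0.16 without control 2), and so was the mitochondrial one. Over all tRNA genes 239 of 410 (58.3%) were lower. The nuclear glutamine genes were 10 copies with the anticodon CTG and 5 with TTG, which share much of their sequence and may share reads. Sequences of Gln-CTG copies are printed because their levels and differences sorted by a single base. They are as deposited, 5′ to 3′, with the 3′ CCA tail, and capitals mark the anticodon.

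chr17.trna1911-Gln-CTG: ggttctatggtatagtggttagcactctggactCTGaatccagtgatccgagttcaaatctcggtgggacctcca

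chr2.trna7588-Gln-CTG: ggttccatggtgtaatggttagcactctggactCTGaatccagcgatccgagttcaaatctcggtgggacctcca

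chr10.trna11252-Gln-CTG: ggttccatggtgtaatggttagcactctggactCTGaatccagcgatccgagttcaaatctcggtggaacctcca

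chr17.trna3684-Gln-CTG: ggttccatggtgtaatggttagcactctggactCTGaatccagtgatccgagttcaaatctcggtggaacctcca

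The entry names place them at chr17:58796727-58796798 (plus strand), chr2:217990999-217991070 (minus), chr10:55454139-55454210 (minus), and chr17:58809986-58810057 (minus). The submitters' notes name rn6, but 9 tRNA entries have ends past the last gene of their chromosome in the RefSeq table of GRCr8, so the build of these positions could not be checked here. The copies of chromosome 10 and chromosome 2 shown differ by 1 base, A68G, counted from 1 at the 5′ end of the deposited sequence and read from chr10.trna11252 to chr2.trna7588. chr17.trna1911 differs from chr2.trna7588 by T6C, A12G, G15A and T44C, read from chr17.trna1911 to chr2.trna7588.

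The 4 copies with A at base 68 were each at 3665 to 3837 CPM in control, and their log2 fold changes ran from -0.21 to -0.18. The 6 copies with G there were each at 1365 to 1640 CPM, and theirs ran from -0.64 to -0.50. All 6 were among the 24 entries at an unadjusted p under 0.05, and none of the 4 was.

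Summed, the copies with G held 10549, 10603 and 6648 CPM in control 1 to 3 and 6878, 5678 and 6622 CPM in MMT 1 to 3. As a percentage of the copies with A, which needs no scaling between libraries, this was 67.02, 64.1 and 50.5 in control and 52.0, 45.9 and 47.0 in MMT libraries. Control 3 lay below MMT 1, so the groups overlapped. The split by this base was noticed after the values were seen and carries no test. Copies that are identical had nearly equal counts (control means of 3817 CPM for chr10.trna11252-Gln-CTG, 3836 CPM for chr17.trna1868-Gln-CTG and 3837 CPM for chr8.trna2095-Gln-CTG). How reads fitting several copies were placed is not given in the sources used here.

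chr17.trna1911-Gln-CTG had the lowest p of the tRNA genes. It stood at 1566, 1530 and 999.99 CPM in control and at 994, 751 and 882 CPM in MMT libraries. Every MMT library lay below every control library, though control 3 and MMT 1 all but met. The log2 fold change was -0.64 ± 0.20 (SE) and the adjusted p 0.999 in edgeR. Over the whole isotype, Gln-CTG summed to 26627, 26747 and 20205 CPM in control and 20309, 17919 and 20329 CPM in MMT libraries (-0.33 ± 0.15, SE). Again control 3 lay among the MMT libraries. Gln-TTG summed to 2923 ± 668 and 2339 ± 202 CPM (-0.32 ± 0.19, SE).

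Adding the log2 total to the fit gave the only calls of any alternative. In the table with miRNAs summed by seed, 6 of 960 rows passed (0.625%), and all 6 were single tRNA genes. Of these, 5 were Gln-CTG copies with G at base 68: chr17.trna1911 at -0.65 (adjusted p = 0.0173 in edgeR) and chr2.trna7588, chr2.trna7583, chr2.trna4382 and chr2.trna4450 at -0.55 to -0.50 (adjusted p = 0.0485 each). The copies may share reads, so the calls are not independent. In the tables of all entries and of isotype sums the same fit called 0, and the lowest adjusted p was 0.0646 and 0.124.

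The sixth was chr2.trna4358-Gly-CCC, on the high side (0.58, adjusted p = 0.0155 in edgeR with the log2 total). Its sequence is shown for its start, which is that of another glycine isotype.

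chr2.trna4358-Gly-CCC: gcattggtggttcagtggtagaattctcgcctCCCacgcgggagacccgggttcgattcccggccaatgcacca

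The entry name places it at chr2:217947735-217947805 (plus strand). Its first 32 bases are shared by 7 of the 11 tested Gly-GCC copies, the most abundant tRNA isotype here, so a fragment within them fits both. chr2.trna4358-Gly-CCC stood at 2457, 4192 and 5343 CPM in control and at 5103, 7658 and 4234 CPM in MMT libraries. Within each group the level was higher the lower the total count. Without that term in the fit the log2 fold change was 0.50 and the groups overlapped. The other 4 Gly-CCC copies had log2 fold changes from -0.07 to 0.06.

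Both mitochondrial tRNAs in the files were lower in MMT. They are transcribed from the mitochondrial genome and serve the synthesis of respiratory chain proteins.

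chrM.trna1-mt-Leu-TAA: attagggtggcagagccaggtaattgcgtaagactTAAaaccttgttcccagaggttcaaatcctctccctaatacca

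chrM.trna4-mt-Gln-TTG: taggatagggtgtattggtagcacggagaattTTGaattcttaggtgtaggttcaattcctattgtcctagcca

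Their names give chrM:2665-2739 (plus strand) and chrM:3761-3831 (minus strand). chrM.trna1-mt-Leu-TAA stood at 9363, 5822 and 12577 CPM in control and at 4424, 3883 and 6165 CPM in MMT libraries. MMT 3 lay above control 2, and control libraries spread more than 2-fold. The log2 fold change was -0.94 ± 0.30 (SE), the largest of any entry with a mean above 1000 CPM, with an unadjusted p of 0.0148 in edgeR and an adjusted p of 0.999. chrM.trna4-mt-Gln-TTG stood at 16515, 13978 and 15658 CPM in control and at 11520, 12464 and 14002 CPM in MMT libraries, where MMT 3 and control 2 met, with a log2 fold change of -0.28. As a row of the isotype table, which has its own scaling, mt-Gln-TTG had all MMT libraries below all control libraries (13768 to 16727 against 11642 to 13734 CPM). With 2 mitochondrial tRNA genes in the files, the mitochondrial set as a whole was not measured.

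Of 28 arginine genes 27 were lower (median -0.21; -0.10 without control 1, -0.11 without MMT 2 and -0.14 without control 2), and 8 had all MMT libraries below all control libraries. All 10 histidine genes were lower (median -0.17), 2 of them without overlap (median -0.11 without control 2). Such separation was seen in 4.48% of all entries and 7.32% of all tRNA genes. Of all 410 tRNA genes, 239 (58.3%) were lower at any size. The counts of lower glutamine and histidine genes were the same in every alternative fit and with any library left out, and those of arginine ran from 23 to 27. Genes of 1 amino acid may share reads, and their counts carry no test. Among alanine genes 36 of 51 were lower (median -0.05), and 9 were without overlap (again beside 4.48% of all entries and 7.32% of tRNA genes), but without control 3 or without MMT 3 only 22 and 24 were lower. By contrast 16 of 17 aspartate genes were higher (median 0.13), yet all 17 were lower (median -0.14) without control 1, where aspartate tRNAs were low, and 11 of 17 (median -0.03) without MMT 2, where they were high: Asp-GTC summed to 11151, 23664 and 26115 CPM in control and 21230, 27434 and 17179 CPM in MMT libraries. Of the valine genes 15 of 18 were lower, against 5 to 7 without control 1, control 2 or MMT 2.

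The remaining named tRNA genes were copies of low level, each with no overlap between the groups. All were named for their low p, so this follows largely from the choice. Over all entries 4.48% lay wholly below control, and over all tRNA genes 7.32%. chr17.trna3666-Thr-AGT (chr17:58935816-58935889, minus strand) stood at 173, 200 and 186 CPM in control and 125, 130 and 158 CPM in MMT libraries. chr1.trna11062-Arg-TCT (chr1:235509653-235509738, minus strand) stood at 207, 222 and 209 CPM and at 178, 159 and 166 CPM. The same pattern held for chr17.trna1888-Thr-CGT (chr17:58030738-58030811, plus strand; 228 ± 22.7 against 176 ± 9.91 CPM), chr2.trna9817-Arg-ACG (chr2:124126944-124127016, minus strand; 140 ± 21.0 against 102 ± 8.41 CPM) and chr4.trna1771-Cys-GCA (chr4:142483584-142483655, plus strand; 161 ± 15.1 against 119 ± 17.4 CPM). The Cys-GCA sequence belongs to 21 identical entries, and only this copy had all MMT libraries lower among the 40 cysteine genes.

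For Thr-AGT, 3 of 9 copies had all MMT libraries lower (beside 4.48% of all entries), all 3 on chromosome 17, while the 3 most abundant copies, at control means of 1069 CPM for chr1.trna15533-Thr-AGT, 1053 CPM for chr10.trna11262-Thr-AGT and 1103 CPM for chr10.trna2464-Thr-AGT, had log2 fold changes of 0.07 to 0.14. Over all isotypes, 13 of the 30 separated tRNA genes lay on chromosome 17, where 86 of the 410 tested genes are named (15.1% of them separated, against 7.32% of all tRNA genes). This was seen after the values were known and was not tested. On the high side chr13.trna2370-Leu-CAG (chr13:95701090-95701172, plus strand) was at 1047 ± 51.1 CPM in the control and 1181 ± 53.7 CPM in the MMT group with no overlap (0.18 ± 0.10, SE).

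Summed by isotype, 34 of 52 tRNA isotypes were lower in MMT and 18 higher. edgeR called 0 of the 690 rows of that table (0.0%), and an unadjusted p under 0.05 was reached by 11 on the low side (1.59%) and 1 on the high side (0.145%). Of the isotypes only mt-Leu-TAA was among them. Of its rows 53.8% were lower in MMT at any size, 22 (3.19%) had all MMT libraries below all control libraries and 10 (1.45%) all above. All MMT libraries lay below all control libraries in 5 isotypes, mt-Gln-TTG, Arg-TCG, Ala-TGC, Arg-TCT and Ala-CGC, and above in 0. Arg-TCG summed to 2603, 2974 and 2525 CPM in control and 2210, 1949 and 2411 CPM in MMT libraries (-0.30 ± 0.14, SE), and Ala-TGC to 5912 ± 314 and 5257 ± 84.6 CPM (-0.17 ± 0.12, SE). Lys-TTT, a single gene, was at 8253, 7434 and 5893 CPM and at 6187, 5294 and 6042 CPM (-0.30 ± 0.16, SE), so control 3 lay among the MMT libraries.

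The isotype sums of lowest p on the high side were Gly-CCC (0.26 ± 0.18, SE), Leu-TAG (0.16 ± 0.12), Pro-TGG (0.12 ± 0.14), Thr-TGT (0.11 ± 0.12) and Leu-CAG (0.07 ± 0.11). Of the most abundant isotypes, Gly-GCC, a frequent source of 5′ tRNA fragments, was at 59006 ± 1217 CPM in the control and 61173 ± 11535 CPM in the MMT group, with MMT 2 highest at 73532 and MMT 3 lowest at 50692 CPM. Lys-CTT was at 26197 ± 420 and 25934 ± 526 CPM.

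**Figure D5:**
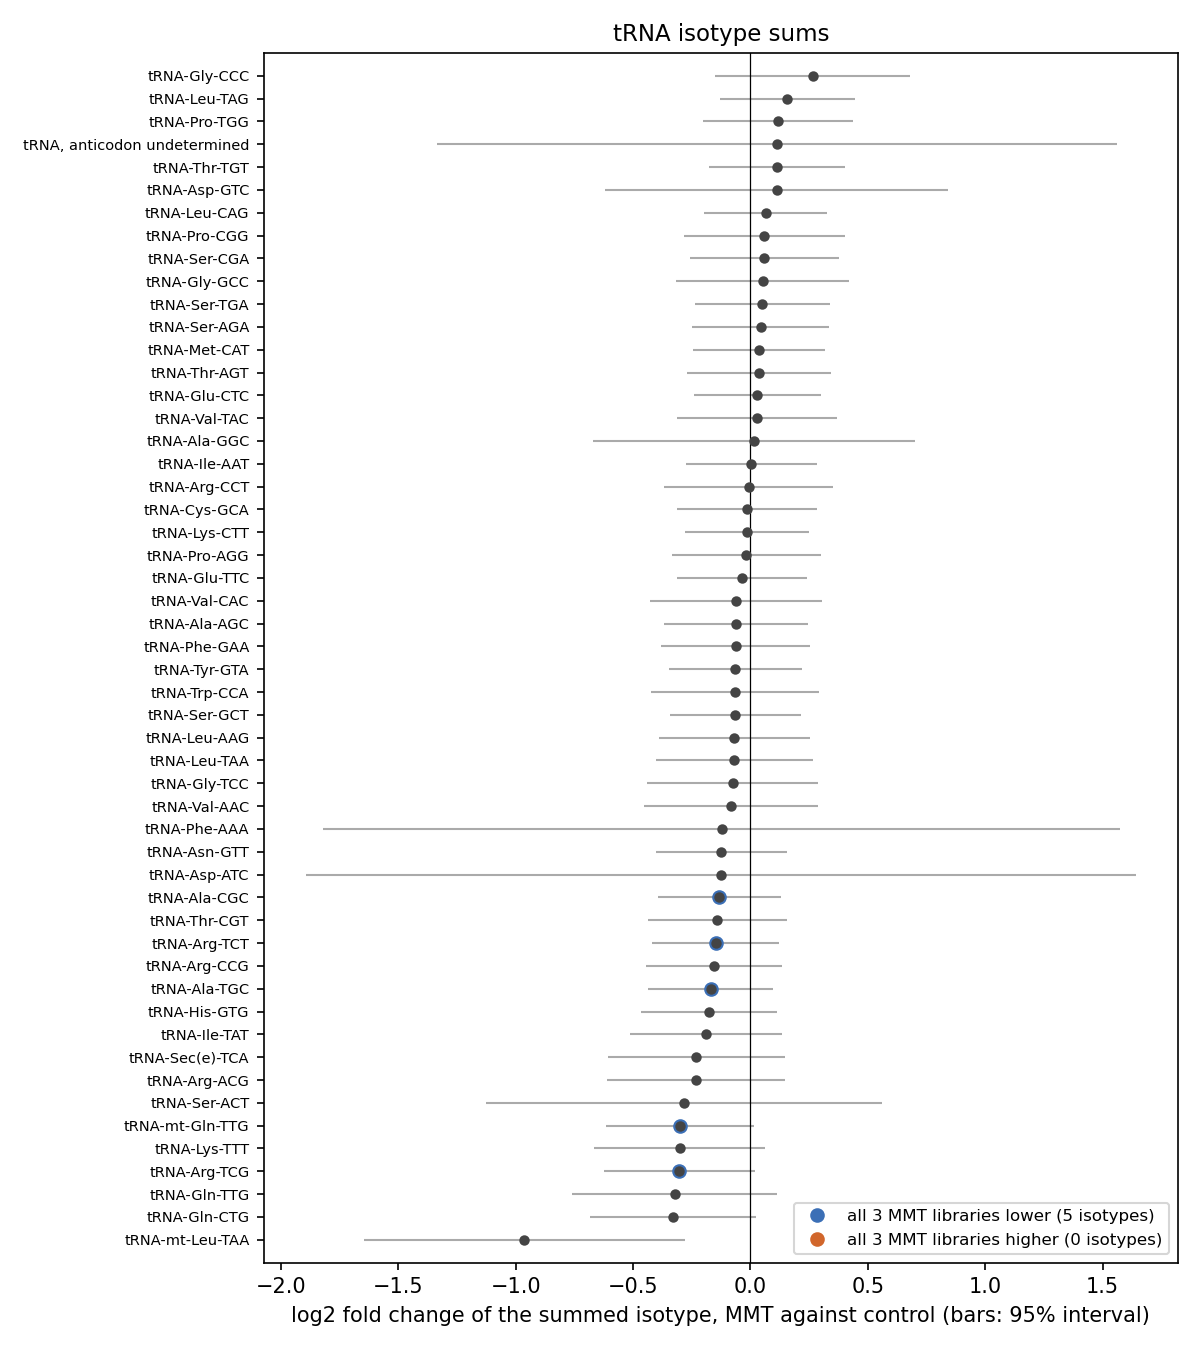
Fitted log2 fold change of each tRNA isotype sum, MMT against control, with its 95% interval (bars). Points in blue are isotypes with all 3 MMT libraries below all 3 control libraries, and none lay wholly above. The interval of mt-Leu-TAA alone excludes 0 before adjustment, and the nuclear Gln-CTG, Gln-TTG and Arg-TCG sums lie lowest after it.

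Of the 80 tested piRNA entries, 58 share at least 16 bases with a tRNA, and 38 of these 58 were lower (median -0.15). The 5 entries at an unadjusted p under 0.05 are printed with pir-64451, whose p was 0.0756, to show that they form 3 pairs in which one sequence lies within the other.

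pir-64205: GCCCGGCTAGCTCAGTCGGTAGAGCATGAG

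pir-63476: CGGCTAGCTCAGTCGGTAGAGCATGAG

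pir-64452: GGCCGTGATCGTATAGTGGTTAGTACTCT

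pir-64451: GGCCGTGATCGTATAGTGGTTAGTACTC

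pir-64524: GGGGGTATAGCTCAGTGGTAGAGCATTTGA

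pir-64523: GGGGGTATAGCTCAGTGGTAGAGCATTTG

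The first pair lies whole within Lys-CTT and the last pair whole at the start of Cys-GCA, while the middle pair matches the start of His-GTG from its second base on. Here the capitals mark no part. pir-64205 (the entry under its piRNA cluster name) stood at 341, 249 and 123 CPM in control and at 132.7, 137.8 and 133.4 CPM in MMT libraries (-0.84 ± 0.32, SE), and pir-63476 at 70.5, 50.2 and 10.8 CPM and at 16.6, 11.5 and 17.3 CPM (-1.54 ± 0.63, SE). In both, control 1 and control 2 were high and control 3 at or below the MMT libraries, the order of the control totals. pir-64524, also under its cluster name, stood at 120, 88.4 and 49.2 CPM against 57.2, 40.8 and 37.3 CPM (-0.94 ± 0.35, SE), with control 3 among the MMT libraries. The same sequence is listed a second time as pir-64524@tRNA, at 82.6 ± 10.5 CPM in the control and 81.7 ± 13.0 CPM in the MMT group (-0.02 ± 0.20, SE). Among tested piRNA entries 7 sequences are listed under both kinds of name. For pir-64523, which like pir-64524 had an unadjusted p under 0.05 under its cluster name alone, the log2 fold changes were -0.93 ± 0.38 under that name and -0.03 ± 0.28 (SE) under the tRNA name. How reads were divided between such entries is not given in the sources used here.

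pir-64452 stood at 217, 210 and 154 CPM in control and at 150, 139 and 145.1 CPM in MMT libraries (-0.43 ± 0.16, SE), and pir-64451, 1 base shorter, at 121.8, 106 and 131 CPM and at 104, 90.6 and 94.7 CPM (-0.31 ± 0.15, SE). Both had all MMT libraries lower. pir-87165, which shares bases with Val-AAC, Val-CAC and Ala-AGC, was the piRNA entry on the high side, at 437 ± 26.3 and 505 ± 34.7 CPM (0.21 ± 0.11, SE), with all MMT libraries above all control libraries.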

How the data were processed

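Small RNA was sequenced from rat striatum. Per the labels' protocols, total RNA was taken with TRIzol, small RNA was cut from a gel and the QIAseq miRNA Library Kit was used. The authors deposited raw read counts per annotated sequence for each library, and the submitters' processing notes name Trimmomatic and rn6. The sources used here do not give the aligner, the use of molecular identifiers and strand, or the placing of reads that fit several entries. Counts of the 6 libraries were joined by entry. The edgeR 4.0.16 quasi-likelihood test (R 4.3.3, limma 3.58.1; filterByExpr, TMM, robust fit) compared MMT with control over all entries passing the filter, with Benjamini-Hochberg adjustment and a threshold of 0.05. It was repeated on tables with tRNA genes summed by anticodon and miRNAs by seed, each scaled by itself. Class shares and totals were tested by exact permutation over 20 arrangements. DESeq2 1.42.0, other filters, scalings and fits, and leaving out each library were the alternatives. Tables and figures used Python 3.11.15, numpy 2.4.6, pandas 2.3.3 and matplotlib 3.10.9. Scripts were tested on simulated data.

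The entries named are those of lowest p, up to 10 in each direction since none passed the threshold, with 1 per sequence or tRNA isotype. To them come the 5 most abundant miRNAs, the 3 most abundant isotypes, the 5 isotype and 5 seed sums of lowest p in each direction, the other arms and seed relatives of named miRNAs, and of each list the 2 members of highest level and the 2 of lowest p. Others are said to be chosen after their values were seen. The comparison and the lists were chosen with earlier results of these data known. Depth ran from 583045 to 2012769 counts per library. No 2 libraries of a group had counts that differed by as little as sampling noise.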

Additional observations from a re-analysis of the deposited data

How the results depend on the processing

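The count of 0 calls held in all 17 alternatives for all entries and all 14 for isotype sums, and for seed sums in 13 of 14. The exception was the log2 total as a covariate, with 6 calls. The 20 entries of lowest p, 10 in each direction, kept their direction in every alternative run. They were chosen by their p in these same libraries, so a kept direction follows largely from the choice and is no separate support. Counts at an unadjusted p under 0.05 ran from 3 to 47 lower and from 0 to 29 higher. The -0.16 under miR-1-3p with entries of shared sequence summed is the value of that sum, not of miR-1-3p alone. The replicate block of the titles' numbers gave 11 lower and 1 higher with 0 calls in any table. Deviations of same-numbered libraries from their group mean correlated at 0.31, 0.39 and -0.67. The highest values were 0.77 for control 3 with MMT 2 and 0.66 for control 1 with MMT 3. The former are the shallowest libraries of their groups and the latter the deepest. The correlations thus go with total count and cannot show whether the numbers pair the libraries. Leaving out 1 library moved the MMT minus control difference in total from -342206 to 372656 counts, and in shares from -0.386 to 3.27 percentage points for miRNA, -3.20 to 0.283 for tRNA and -0.0731 to 0.128 for piRNA. The sign of the total turned without control 1 or MMT 2, of the miRNA and tRNA shares without control 3 or MMT 3, and of the piRNA share without control 2 or MMT 2. No scaling moved the median of all entries by more than 0.1 on the log2 scale. With 3 libraries a group, entries up to 20 CPM could show only large differences.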

Other observations

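Raw counts did not always follow depth in the control group. Of 179 tested entries between 20 and 50 CPM, 68 had fewer counts in control 1, the deepest library, than in control 3, the shallowest. From 50 to 100 CPM the number was 16 of 113.

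The pair pir-64264 and pir-64265, which both match Gly-TCC, lay on opposite sides without overlap between the groups. Their log2 fold changes were 0.50 ± 0.54 and -0.52 ± 0.39 (SE). Both rest on few counts, 19, 7 and 7 in control against 21, 9 and 16 in MMT libraries for pir-64264. For pir-64265 these were 40, 26 and 15 against 23, 13 and 20. The pair was picked after the values were seen. Of all entries 1.43% lay wholly above and 4.48% wholly below.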
